A study of Homo sapiens with 8 samples.

Results

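The genes described here are the metallothioneins MT2A, MT1E, MT1G, MT1F, MT1M and MT1X, their metal-sensing regulator MTF1 and the SLC30 exporters SLC30A1 and SLC30A10. They were chosen by name for their part in metal homeostasis, with earlier results of these data known, and all 9 were found among the 17561 genes of the deposited table. Their transcripts were measured by RNA-seq in HepG2 cells, a line derived from a human hepatocarcinoma, after transfection with 1 of 2 plasmids. The pGRHL2 plasmid drives a flag-tagged cDNA of GRHL2, an epithelial transcription factor, from the EEF1A1 promoter and carries enhanced GFP on the same transcript, whereas pcDNA3 is an empty vector, so the plasmids differed in more than the GRHL2 insert. There were 4 libraries for each plasmid, with the numbers 1 to 4, from cells collected 48 h after transfection. Both groups were grown on gelatin in William's medium with 10% serum, 20 mU/ml insulin and, according to the labels, 50 nM dexamethasone, a glucocorticoid. The cells of both groups were thus kept in a hormone that is known to induce metallothionein genes.

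Metallothioneins are small cysteine-rich proteins that bind zinc, copper and cadmium, and the liver is a major site of their synthesis. Zinc that enters the cell activates MTF1, which binds metal response elements in the promoters of metallothionein genes and of SLC30A1, the exporter that carries zinc out through the plasma membrane. Glucocorticoids and oxidative stress also raise metallothionein transcription, and SLC30A10 is known in the liver mainly as a manganese exporter.

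The metallothionein genes lie together on chromosome 16, where the 6 measured here span 75.6 kb of hg38 (GENCODE release 44). MT2A is the first of them, at chr16:56608584-56609497, followed by MT1E at chr16:56625475-56627112, MT1M at chr16:56632659-56633981, MT1F at chr16:56657731-56660698, MT1G at chr16:56666730-56668065 and MT1X at chr16:56682470-56684196. MT1G is the only one of them on the minus strand. MTF1 (chr1:37809574-37859592), SLC30A1 (chr1:211571568-211579161) and SLC30A10 (chr1:219685427-219959018) all lie on the minus strand of chromosome 1. The canonical transcript has 2 exons in MT1E and SLC30A1, 3 in the other metallothioneins, 4 in SLC30A10 and 11 in MTF1.

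Promoter sequences were available for 5 of the 9 genes (RefSeq, GRCh38.p14), and the 3 that hold a metal response element core are shown because this element is what MTF1 reads. Each sequence is the 250 bases before the transcription start, 5′ to 3′ on the strand of the gene. Capitals mark matches to the core TGCACNC or TGCGCNC, searched on both strands, so that a match on the opposite strand appears as its reverse complement. The promoters of MT2A (chr16:56608334-56608583, plus strand), MT1X (chr16:56682220-56682469, plus strand) and SLC30A1 (chr1:211579162-211579411, minus strand) read as follows.
MT2A: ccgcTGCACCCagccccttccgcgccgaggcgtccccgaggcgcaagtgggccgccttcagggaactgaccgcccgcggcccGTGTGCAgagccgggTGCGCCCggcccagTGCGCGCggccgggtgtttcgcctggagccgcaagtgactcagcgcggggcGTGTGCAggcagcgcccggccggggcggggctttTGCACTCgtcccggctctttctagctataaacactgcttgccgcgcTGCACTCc
MT1X: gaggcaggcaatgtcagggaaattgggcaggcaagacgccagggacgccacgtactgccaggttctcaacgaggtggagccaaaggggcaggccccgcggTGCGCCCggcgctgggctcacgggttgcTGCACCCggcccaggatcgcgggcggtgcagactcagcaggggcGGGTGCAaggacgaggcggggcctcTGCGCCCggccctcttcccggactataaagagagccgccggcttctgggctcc
SLC30A1: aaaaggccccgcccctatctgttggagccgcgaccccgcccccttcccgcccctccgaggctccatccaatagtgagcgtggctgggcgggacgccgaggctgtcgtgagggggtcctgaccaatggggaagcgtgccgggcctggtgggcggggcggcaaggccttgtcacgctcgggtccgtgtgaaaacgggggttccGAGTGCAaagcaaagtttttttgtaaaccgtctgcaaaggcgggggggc

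The MT2A promoter held 7 matches spread along the whole window, and 7 or more were found in 0.0313% of the 35116 promoters of this length. The nearest match to the start of MT2A lay 8 to 2 bases before it. The MT1X promoter held 4 matches, a number reached or passed in 0.37% of promoters. SLC30A1 held 1 match, 49 to 43 bases before its start, and 24.8% of promoters held at least 1. No match was found in the windows before MTF1 or either start of SLC30A10. The palindrome AACCGGTT, of the type that grainyhead factors bind, occurred in 0 of the windows of these 5 genes and in 0.117% of all promoters. The AP-1 type sequence TGACTCA occurred 1 time before MT2A and 1 time before 1 of the starts of SLC30A10, against 4.2% of promoters with at least 1. These are matches of letters within short windows, and binding was not measured here.

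The deposited values are on a log2 scale and set relative to transcript length, so that levels can be set beside each other between genes. Library medians lay between 6.71 and 6.73. The read counts behind the values were not analysed here, so the depth was unknown and no counting error is given. Averaging a pGRHL2 library with the pcDNA3 library of its number gave 1 and the same value at every number, in 17561 of 17561 genes, and a gene that is high in 1 library of a pair is therefore low in the other by construction. Differences are accordingly given as 4 pair differences (pGRHL2 minus pcDNA3) with their SD. The study describes the libraries of a group as independent biological replicates, while the labels only number them. The transfected gene, GRHL2, checked the labels, with log2 values of 16.22 to 16.87 in pGRHL2 and 6.61 to 7.25 in pcDNA3. All 8 hepatocyte markers examined were in the table at levels of 9.83 to 17.1, and 0 of them passed the test (1 at an unadjusted limma p under 0.05), the largest differences being those of FGB (0.28) and TTR (0.14). Of the markers of other cell types, 2 of 5 for fibroblasts (COL1A1, PDGFRB), 1 of 5 for leukocytes (CD14) and 2 of 4 for endothelial cells (PECAM1, VWF) were listed at 5.82 or lower with log2 differences between -0.03 and 0.20, none of which passed, and PTPRC, CD3E, COL3A1, CDH5 and KDR were not in the table.

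The comparison of pGRHL2 with pcDNA3 asked whether any of the 9 genes differed when GRHL2 was expressed. None passed a limma adjusted p under 0.05 in either direction, with 1 (MTF1) at an unadjusted p under 0.05. Over all genes tested, 2.19% passed the adjusted threshold (1.69% higher and 0.501% lower in pGRHL2) and 16% had an unadjusted limma p under 0.05. In a separate fit, with its own adjustment, to only the genes with a mean log2 value of at least 5, lower calls outnumbered higher ones, 81 to 63. The abundant metallothioneins MT2A, MT1E and MT1G were higher with pGRHL2 in pairs 1, 2 and 4 and lower in pair 3. MTF1 was lower in 4 of 4 pairs. MT1F, MT1M and MT1X varied little, and MT1M and MT1X were listed at low levels.

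**Figure D1:**
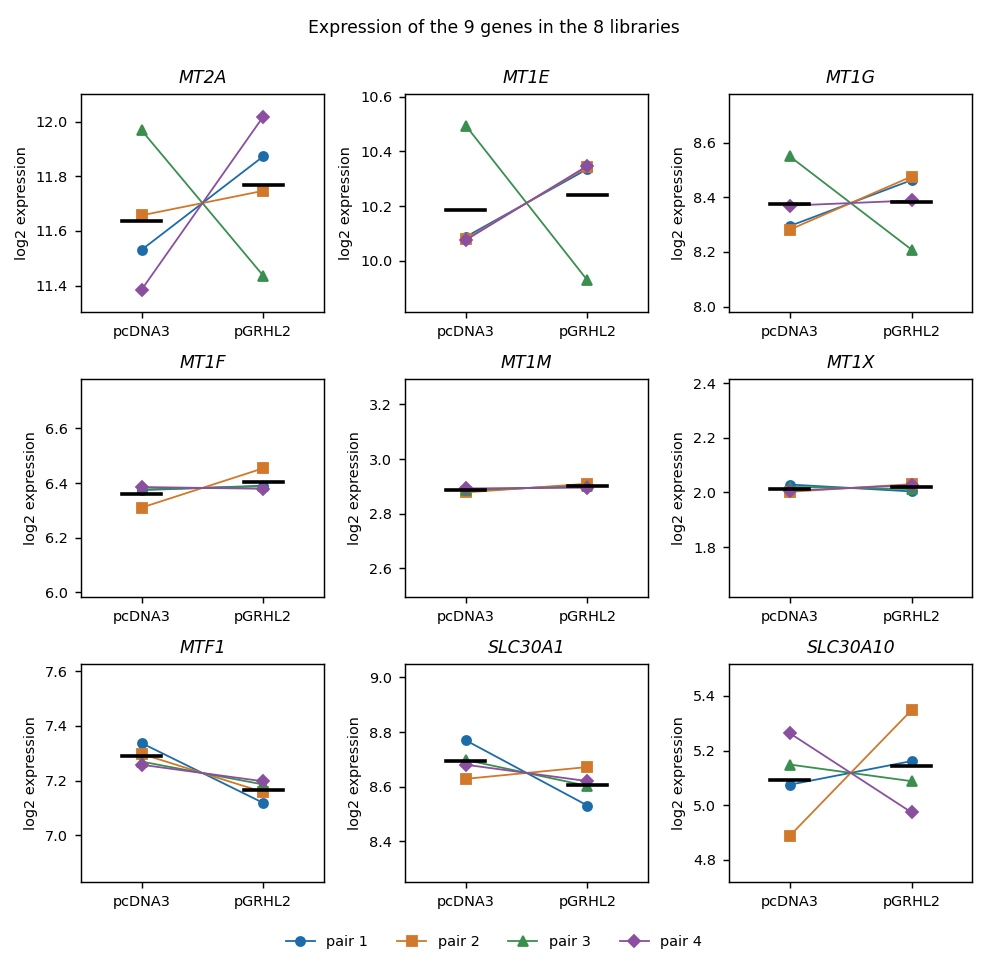
Deposited log2 expression (y axis, with the same span but a different offset in each panel) of the 9 genes in the 4 pcDNA3 and 4 pGRHL2 libraries. Lines join same-numbered libraries and black bars are group means. In MT2A, MT1E and MT1G the line of pair 3 falls while the other 3 rise, and in MTF1 all 4 lines fall.

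MT2A, which had the highest length-adjusted level of the 9 genes and is the main metallothionein of most human cells, had log2 values of 11.87, 11.75, 11.44 and 12.02 in pGRHL2 libraries 1 to 4. Its values in pcDNA3 libraries 1 to 4 were 11.53, 11.66, 11.97 and 11.39. The groups overlapped, since the libraries numbered 3 were the lowest of pGRHL2 and, by the equal pair means, the highest of pcDNA3. The pair differences were 0.34, 0.09, -0.53 and 0.63, which gave a mean log2 FC of 0.13 ± 0.50 (SD over 4 pairs). By limma the 95% interval ran from -0.22 to 0.48, or 0.862- to 1.4-fold, and the adjusted p was 0.748. An exact permutation test that flips the signs of the 4 differences (two-sided) gave p = 0.625, where the smallest p that 4 pairs allow is 0.125.

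MT1E, the metallothionein with the next highest length-adjusted level, showed the same division of pairs in a sharper form. In pGRHL2 libraries 1 to 4 its log2 values were 10.34, 10.34, 9.93 and 10.35. In pcDNA3 libraries 1 to 4 they were 10.09, 10.08, 10.49 and 10.08. Both libraries numbered 3 stood apart from the other 3 of their group, in opposite directions because the pair means are equal. The pair differences of MT1E were 0.25, 0.26, -0.57 and 0.27, nearly equal in 3 pairs and larger, with the opposite sign, in pair 3. The mean log2 FC was 0.05 ± 0.41 (SD over 4 pairs), with a limma 95% interval of -0.25 to 0.36 and an adjusted p of 0.903.

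MT1G had log2 values of 8.46, 8.48, 8.21 and 8.39 in pGRHL2 libraries 1 to 4 and 8.30, 8.28, 8.55 and 8.37 in the pcDNA3 libraries. Library 3 was again the lowest of pGRHL2 and, by the equal pair means, the highest of pcDNA3, and the groups overlapped. The pair differences were 0.17, 0.19, -0.34 and 0.02. Their mean was a log2 FC of 0.01 ± 0.25 (SD over 4 pairs), with a limma adjusted p of 0.978.

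Without the libraries numbered 3, the limma log2 FC was 0.36 for MT2A (adjusted p = 0.161), 0.26 for MT1E (adjusted p = 0.11) and 0.13 for MT1G (adjusted p = 0.426). Pair 3 was singled out after its values were seen, and leaving out another pair gave values near or below 0 in most cases: MT1E came to -0.01, -0.02 and -0.02 without pair 1, 2 or 4, MT1G to -0.04 and -0.05 without pair 1 or 2 and 0.01 without pair 4, and MT2A to -0.03 without pair 4, 0.06 without pair 1 and 0.15 without pair 2. None of the 3 genes passed the threshold in any of these fits. The same sign pattern, higher in pairs 1, 2 and 4 and lower in pair 3, was found in 7% of all genes and in 6.36% of the 10858 genes with a mean log2 value of at least 5. A pair 3 difference at or below that of MT1G, together with positive differences in the other 3 pairs, was found in 54 genes, or 0.307% of the table, a measure that was set after the values of these 3 genes were seen. The transfected gene, GRHL2, differed most in pair 3 (10.26, against 8.97, 9.51 and 9.18 in pairs 1, 2 and 4). What set pair 3 apart was not tested. Since bulk RNA was measured, a change in the number of cells that express a metallothionein and a change in the RNA per cell cannot be told apart.

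**Figure D2:**
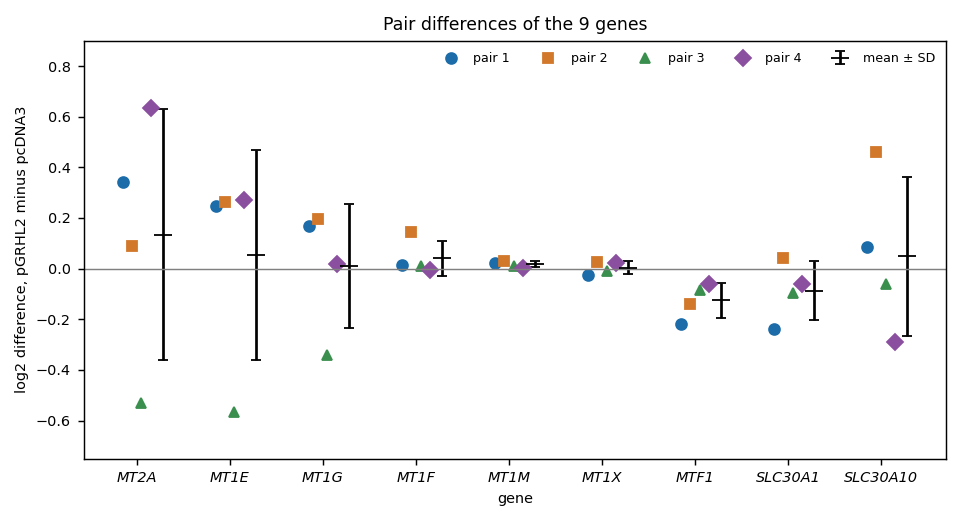
Log2 difference between the pGRHL2 and pcDNA3 libraries of each pair (y axis) for the 9 genes (x axis), with black bars for the mean ± SD of the 4 pairs. The pair 3 differences of MT2A (-0.53), MT1E (-0.57) and MT1G (-0.34) lie below those of the other 3 pairs, whereas those of MT1F, MT1M and MT1X lie within 0.03 of 0.

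MT1F had a moderate level and differed mainly in pair 2. Its pGRHL2 values were 6.39, 6.45, 6.39 and 6.38 and its pcDNA3 values 6.37, 6.31, 6.38 and 6.39 in libraries 1 to 4, so that only the libraries numbered 2 lay clearly apart. The log2 FC was 0.04 ± 0.07 (SD over 4 pairs), with a limma 95% interval of -0.07 to 0.15 and an adjusted p of 0.756. Its pair 3 difference was 0.01, against -0.34 to -0.57 in MT1G, MT2A and MT1E.

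MT1M and MT1X, which belong to the same family, were listed at low levels. The values of MT1M were 2.90, 2.91, 2.90 and 2.90 in pGRHL2 libraries 1 to 4 and 2.88, 2.88, 2.89 and 2.89 in pcDNA3 libraries 1 to 4. It was higher in 4 of 4 pairs, but the log2 FC was only 0.02 ± 0.01 (SD over 4 pairs), the limma adjusted p was 0.78, and 13.4% of all genes were higher in 4 of 4 pairs. MT1X had values between 2.00 and 2.03 in all 8 libraries, with 2 pairs higher and 2 pairs lower, a log2 FC of 0.00 ± 0.03 (SD over 4 pairs) and a limma adjusted p of 0.955. The values were made with a transformation that draws weakly expressed genes together, so that small differences at this level do not show that the RNA was unchanged. When log2 transcript length was added back in full, MT1M reached 1.23 and MT1X 1.70, higher than 8.35% and 12.6% of genes. On the same scale MT2A reached 10.96, higher than 89.5% of genes. Of 12 other metallothionein genes and pseudogenes looked for, only MT1A was in the table, at a level of 2.92 with a log2 FC of 0.02 ± 0.02 (SD over 4 pairs) and a limma adjusted p of 0.728.

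The metallothioneins are near copies of each other, and their values carry that uncertainty. Stretches of 50 bases that also occur in transcripts of other genes made up 51.0% of those of MT1X, 19.9% of MT1G, 14.6% of MT1M, 11.1% of MT2A, 10.3% of MT1E and 6.12% of MT1F. At 150 bases this share was 6.67% for MT1X and 0 for the other 5. MT1X is also the only one of the 9 genes that shares exon bases with another annotated gene: 40.8% of the bases of its canonical transcript lie in a long noncoding RNA on the same strand. How the counting treated reads over these bases was not tested, and the low value of MT1X is therefore uncertain.

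On the length-adjusted log2 scale, the mean levels over the 8 libraries ran from MT2A (11.70) through MT1E (10.21), SLC30A1 (8.65), MT1G (8.38), MTF1 (7.23), MT1F (6.38), SLC30A10 (5.12) and MT1M (2.89) to MT1X (2.02). Only SLC30A1 and MT1G, neighbours in this order, had ranges that overlapped. Equal pair means leave differences between replicate numbers out of these ranges, so they may understate the spread of the libraries. The order may depend on how length is treated: with log2 length added back in full, SLC30A1 stood at 11.21 and MT2A at 10.96. This used mean transcript lengths from GENCODE, which may differ from those of the authors. The deposited values fell less steeply, with a slope of -0.78 on log2 length among genes that hardly varied. These were weakly expressed genes, with a median of 1.22 and a 90th percentile of 3.31 after log2 length was added back, far below MT2A and SLC30A1. Whether SLC30A1 also passes MT2A at that slope was not tested. On a linear scale MT2A lay 2.81-fold above MT1E, and MT1E lay 2.95-fold above SLC30A1. MT2A accounted for 67.4% and MT1E for 24.0% of the summed linear level of the 6 metallothioneins, MT1G for 6.73%, MT1F for 1.69%, and MT1M and MT1X for 0.15% and 0.08%. Along the chromosome the levels did not follow the order of the genes, since MT1M at 2.89 lies between MT1E at 10.21 and MT1F at 6.38.

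**Figure D3:**
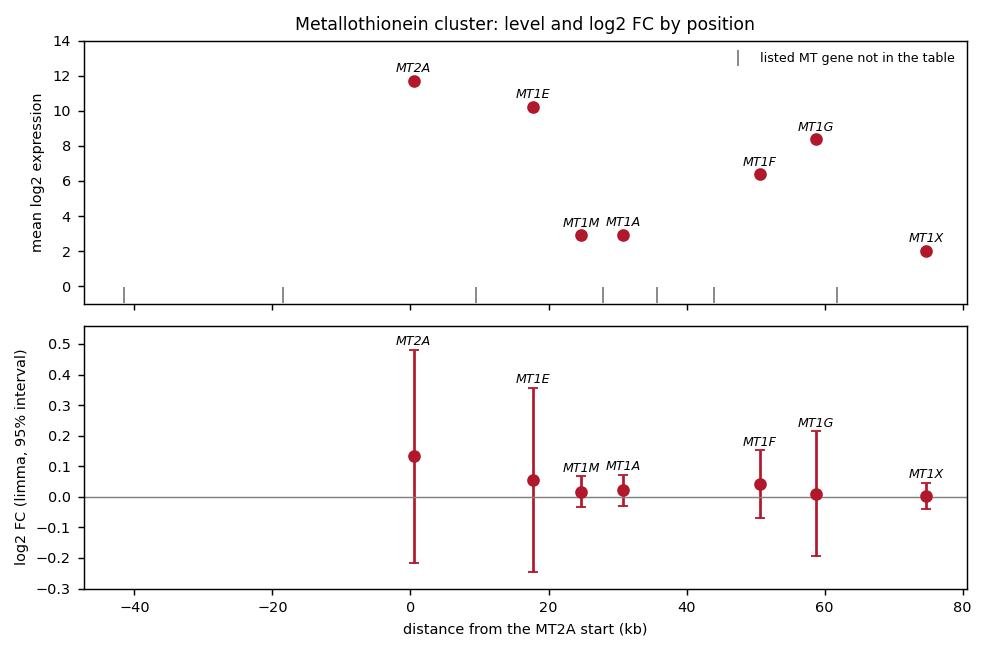
Mean log2 level over the 8 libraries (top) and log2 FC with its limma 95% interval (bottom) of the 7 metallothioneins in the table, placed by distance in kb from the start of MT2A, with grey ticks for listed family members that are not in the table. MT2A (11.70) and MT1E (10.21) have the highest levels and the widest intervals, and every interval contains 0.

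The spread between pairs was larger in the abundant metallothioneins than in most genes, and it was also large in several hepatocyte markers. The SD of the pair differences had a median of 0.117 and a 90th percentile of 0.212 among the 10858 genes with a mean of at least 5. At 0.496, the SD of MT2A exceeded that of 99.7% of them, and the SD of MT1E (0.414) exceeded 99.4%. SLC30A10 (0.315) exceeded 98.2% and MT1G (0.246) exceeded 94.8%. The other genes of this level had ordinary spreads, with SLC30A1 above 49.8%, MTF1 above 18.9% and MT1F above 18.1% of genes. Of the hepatocyte markers, FGB exceeded 98.5%, APOB 97.5%, TTR 97%, APOA1 96.3% and ALB 94.4% of genes. AFP exceeded 88.2%, HNF4A 78.3% and SERPINA1 26.5%. Failure to pass the test thus has a different weight in MT2A, where the limma interval was wide, and in MT1F, where it was narrow. These intervals also draw on the variances of other genes and do not measure the spread of the pairs alone.

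**Figure D4:**
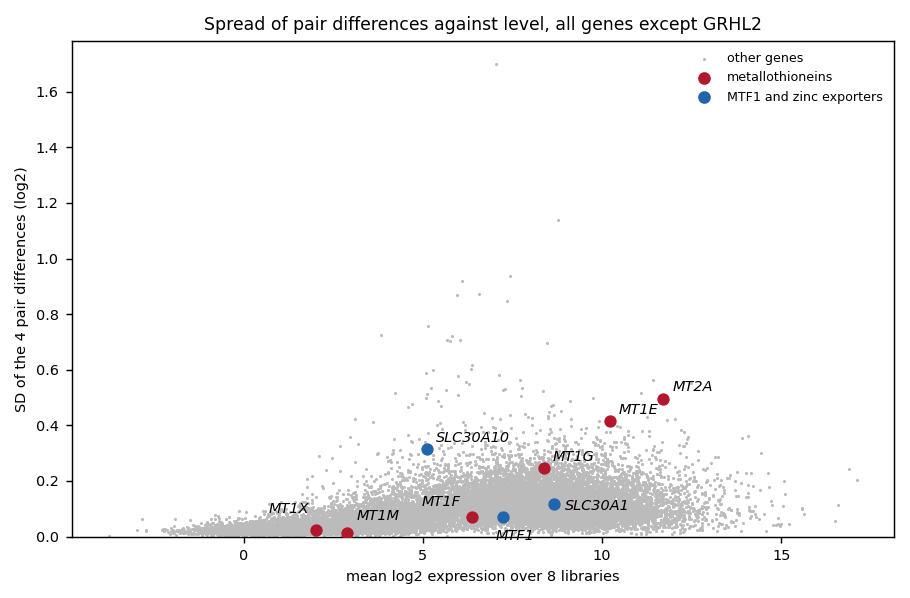
SD of the 4 pair differences (y axis, log2) against the mean log2 level over 8 libraries (x axis) for every gene except GRHL2, with metallothioneins in red and MTF1 and the exporters in blue. MT2A (0.496) and MT1E (0.414) lie at the upper edge of the cloud, and MTF1 (0.0704) and MT1F (0.0692) lie low in it.

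Counted by pair over the 6 metallothioneins, 5 were higher with pGRHL2 in pair 1, 6 in pair 2, 2 in pair 3 and 5 in pair 4. Between 51.5% and 52.3% of all genes were higher in each pair. The median difference of the 6 genes was 0.10 in pair 1, 0.12 in pair 2, -0.17 in pair 3 and 0.02 in pair 4. The counts include MT1M and MT1X, whose largest differences were 0.03 in size, and the 6 genes are not independent observations. Nor do the medians give the profile of a single gene, since MT2A stood at 0.63 and MT1E at 0.27 in pair 4. The genes whose 4 differences lay nearest to these medians, among those with a mean of at least 5, were PSMA1, a proteasome subunit, at a root mean square distance of 0.0157, followed by PDCD5 (0.0165), BRI3BP (0.0171), MRPL57 (0.0203), a protein of the mitochondrial ribosome, and UNC93A (0.0205). With 4 pairs per gene, this likeness is a description only.

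MTF1, the transcription factor that reads zinc, was lower in every pair. Its log2 values were 7.12, 7.16, 7.19 and 7.20 in pGRHL2 libraries 1 to 4 and 7.34, 7.30, 7.27 and 7.26 in pcDNA3 libraries 1 to 4. Every pGRHL2 library lay below every pcDNA3 library, which follows from 4 lower pairs once pair means are equal. The pair differences ran from -0.22 in pair 1 to -0.06 in pair 4, with a mean log2 FC of -0.13 ± 0.07 (SD over 4 pairs), or 0.916-fold. The limma p was 0.0427 before and 0.292 after adjustment over all genes, and the exact sign-flip permutation p was 0.125, the smallest possible. In all, 10.5% of genes were lower in 4 of 4 pairs. In the fit without the replicate block MTF1 passed the threshold (limma adjusted p = 0.0174). That fit counts residual degrees of freedom that the equal pair means have already used. It called 1821 genes higher and 1427 lower, against 297 and 88 with the block.

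SLC30A1, the plasma membrane zinc exporter, had values of 8.53, 8.67, 8.60 and 8.62 in pGRHL2 libraries 1 to 4 and of 8.77, 8.63, 8.70 and 8.68 in the pcDNA3 libraries. It was lower in pairs 1, 3 and 4 and slightly higher in pair 2, and the groups overlapped. The log2 FC was -0.09 ± 0.12 (SD over 4 pairs), with a limma 95% interval of -0.23 to 0.06 and an adjusted p of 0.568. Without pair 1 the log2 FC was -0.04.

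SLC30A10, the manganese exporter, had values of 5.16, 5.35, 5.09 and 4.97 in pGRHL2 libraries 1 to 4 and of 5.08, 4.89, 5.15 and 5.26 in the pcDNA3 libraries. It was higher in pairs 1 and 2 and lower in pairs 3 and 4, with differences of 0.09, 0.46, -0.06 and -0.29. The log2 FC was 0.05 ± 0.32 (SD over 4 pairs) and the limma adjusted p was 0.88. The pair that stood farthest from the others was thus pair 2 in SLC30A10, not pair 3 as in MT2A, MT1E and MT1G, and without pair 2 the log2 FC was -0.09.

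The other genes that move zinc showed a single small difference past the threshold, in a gene listed at a low level. Of 8 further exporters in the table (SLC30 genes and TMEM163), 1 was called higher and 0 lower by limma, with 3 at an unadjusted p under 0.05 and a median log2 FC of 0.05. It was SLC30A4, which loads zinc into vesicles, with values of 0.47 to 0.50 in pGRHL2 and 0.40 to 0.42 in pcDNA3, a log2 FC of 0.08 ± 0.02 (SD over 4 pairs) and a limma adjusted p of 0.0194. Its mean level of 0.45 was far below that of SLC30A1 and higher than only 6.33% of genes, where the transformation draws values together. Leaving out any 1 pair ended the call of SLC30A4 (limma adjusted p between 0.0546 and 0.0888). The other exporters at an unadjusted p under 0.05, SLC30A2 (mean level 1.46) and TMEM163 (0.35), were also listed low. Of 12 SLC39 importers, 0 were called and 2 had an unadjusted limma p under 0.05, with a median log2 FC of 0.06. The largest differences were those of SLC39A11 (0.13, adjusted p = 0.286) and SLC39A4, which takes up dietary zinc (0.11, adjusted p = 0.444). The median over all genes was 0.0017, and whether the medians of these lists differ from it was not tested.

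Genes for handling copper, the other main physiological metal of metallothioneins, did not pass the test. Of 10, 0 were called by limma and 0 had an unadjusted p under 0.05, and the largest differences were those of CP, the copper carrier ceruloplasmin (0.14, adjusted p = 0.511), and COX17, a copper chaperone for cytochrome oxidase (-0.10, adjusted p = 0.606). Of 8 genes that flank the metallothioneins on chromosome 16, likewise 0 were called and 0 had an unadjusted p under 0.05, with CETP, the cholesteryl ester transfer protein (0.08, adjusted p = 0.359), and NUP93, a nuclear pore protein (-0.07, adjusted p = 0.603), the most different.

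Among 9 other regulators that can act on metallothionein genes, 0 were called and 4 had an unadjusted limma p under 0.05. The coactivator EP300 had a log2 FC of -0.23 (adjusted p = 0.256), with negative differences in 3 pairs and 0.11 in pair 3. NR3C1, the glucocorticoid receptor, had values of 8.81 to 8.87 in pGRHL2 and 9.06 to 9.12 in pcDNA3 and was lower in 4 of 4 pairs, with a log2 FC of -0.22 ± 0.06 (SD over 4 pairs) and a limma adjusted p of 0.09. Of 11 glucocorticoid targets other than metallothioneins, 0 were called and 1 had an unadjusted p under 0.05. The largest differences were those of DUSP1, a phosphatase of MAP kinases (-0.22, adjusted p = 0.394), and PER1, a clock gene (0.18, adjusted p = 0.166).

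Of 13 genes that heavy metals and oxidative stress induce together with metallothioneins, 1 was higher and 2 were lower by limma, and 6 had an unadjusted p under 0.05. HMOX1, heme oxygenase, had values of 9.97, 9.82, 9.75 and 10.04 in pGRHL2 libraries 1 to 4 and of 10.42, 10.58, 10.64 and 10.35 in the pcDNA3 libraries. It fell in 4 of 4 pairs, with a log2 FC of -0.60 ± 0.27 (SD over 4 pairs) and a limma adjusted p of 0.0175, unlike MT2A, MT1E and MT1G, whose direction differed between pairs. The immediate-early gene FOS had a log2 FC of -0.44 ± 0.25 (SD over 4 pairs) and a limma adjusted p of 0.0452, and it was also lower in every pair. The stress-induced chaperone HSPA6 rose from 4.17 to 4.56 in pcDNA3 to 5.55 to 5.94 in pGRHL2, a log2 FC of 1.47 ± 0.34 (SD over 4 pairs) and a limma adjusted p of 0.000776. The calls of HMOX1 and FOS were lost when pair 1, pair 2 or pair 3 was left out (adjusted p of 0.0717, 0.0857 and 0.0716 for HMOX1 and of 0.19, 0.159 and 0.124 for FOS), while the log2 FC stayed at -0.65, -0.55 and -0.51 for HMOX1 and at -0.44, -0.44 and -0.34 for FOS. With eBayes without trend, where 4 genes of the table were called higher and 2 lower, none of HSPA6, HMOX1, FOS and SLC30A4 passed (adjusted p of 0.0755 for HSPA6, 0.112 for HMOX1, 0.155 for FOS and 0.212 for SLC30A4).

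**Figure D5:**
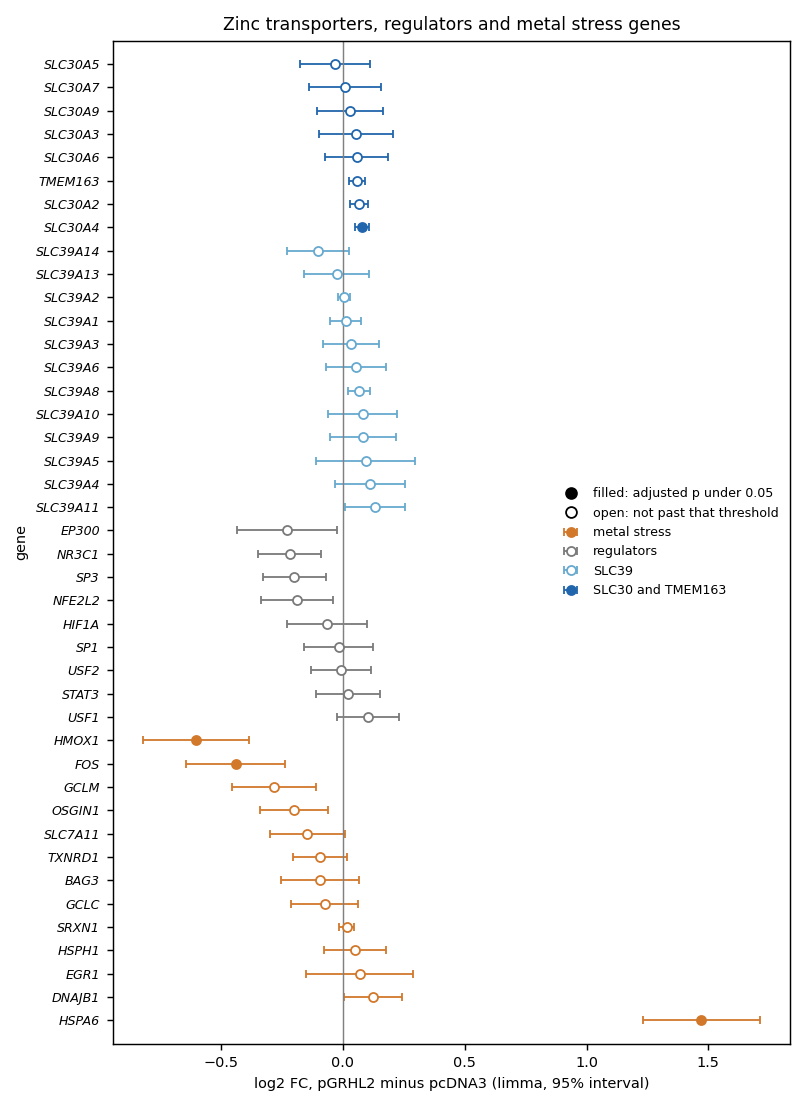
Log2 FC with its limma 95% interval (x axis) for zinc transporters, regulators of metallothionein genes and metal stress genes (y axis), with filled points for an adjusted p under 0.05. SLC30A4, HMOX1, FOS and HSPA6 are the only filled points, and HSPA6 (1.47) lies far to the right of the others.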

How the data were processed

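RNA-seq of HepG2 cells covered 4 pGRHL2 and 4 pcDNA3 libraries, grouped and numbered by their labels. Values in the deposited table are log2 values, although its name says FPKM. Per the study's methods, the authors aligned reads with HISAT2 to hg38, counted exon reads without strand with HTSeq in union mode, removed genes with few reads, applied DESeq2's rlog and divided by mean transcript length. The submitters' processing notes list HISAT2 2.2.1, HTSeq 0.9.1 and DESeq2 1.40.2. Rlog draws weakly expressed genes together, which understates their differences. Among 1753 genes that hardly varied, which were weakly expressed, the deposited log2 value had a slope of -0.78 on log2 length. The table held 1 stray character, which was dropped, and 0 columns of other samples.

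The equality of pair means (tolerance 1e-09) is a step the methods do not describe. It makes any correlation check of the pairing void, so the replicate number was fitted as a block, leaving 3 residual degrees of freedom in place of 6.

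limma (3.58.1, R 4.3.3; lmFit and eBayes with trend) was fitted to the log2 values of all 17561 genes with Benjamini-Hochberg adjustment and a threshold of 0.05, after a check on simulated data. Pair differences of each of the 9 genes were also tested by an exact permutation test that flips their signs, two-sided. Transcript length, GC content and shared bases came from GENCODE release 44 for 17537 genes, and promoters from RefSeq. Alternatives were the fit without the block, eBayes without trend, robust eBayes, arrayWeights, equal library medians, an equal total without GRHL2, a mean of at least 5, removal of GC, length and level trends (splines with 5 degrees of freedom), leaving out each pair, and an adjusted p under 0.01.

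The 9 genes and the lists of related genes were chosen with earlier results of these data known. All 9 were named, and from each other list the genes past the threshold or, where none passed, the 2 with the largest absolute log2 FC, together with GRHL2 and the 5 nearest genes by pair differences.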

Additional observations from a re-analysis of the deposited data

Results flagged for a closer look

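The 4 pair differences (pGRHL2 minus pcDNA3) of 14 genes were examined for a single pair far from the others, and 2 genes had one. In MT1E the difference in pair 3 was -0.57, and its gap to the nearest other pair made up 0.972 of the whole range. In MT1F the difference in pair 2 was 0.14, with a gap of 0.85 of the range. Both passed the 95% limit of Dixon's test for 4 values, which chance passes in about 1 in 20 groups. MT2A and MT1G, whose pair 3 also had the opposite sign to the others, were not past this limit.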

How the results depend on the processing

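Of the 9 genes, 0 were called in either direction under each alternative run except the fit with no replicate block, which called 1 lower (MTF1, limma adjusted p = 0.0174) and 0 higher. Whether the numbers mark a shared culture or day was not stated, and the check of pairing is void because the pair means were made equal. Whatever the numbers mark, the fit without the block counts 6 residual degrees of freedom where the equal pair means leave 3. In simulated data with equal pair means and 200 genes changed by 0.5, 74.8% of the calls without the block were false, against 1.47% with it. The fit with the block recovered 67% of the changed genes and the fit without it 94.5%, so the main fit can miss a change of this size. Without the block, 1821 genes of the table were called higher and 1427 lower, against 297 and 88 with it. For all genes, the calls higher and lower were 4 and 2 with eBayes without trend, 77 and 10 at the stricter threshold of 0.01, and 503 and 221 with arrayWeights. They were 495 and 93 with an equal total without GRHL2, 152 and 66 once GC, length and level trends were taken out, and 63 and 81 among genes with a mean of at least 5, which left out MT1M and MT1X and lowered the share of higher calls from 77.1% to 43.8%. Leaving out 1 pair at a time, which removes both of its libraries, gave 79 to 156 higher and 8 to 68 lower.

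Among single genes, MT1X turned to -0.00064 with arrayWeights, -0.00037 with equal library medians and -0.014 with trends removed, which also turned MT1M to -0.0076. Leaving out 1 pair gave log2 FC ranges of -0.018 to 0.26 for MT1E (negative without pair 1, 2 or 4: -0.010, -0.016 and -0.018), -0.051 to 0.13 for MT1G (-0.043 without pair 1), -0.033 to 0.36 for MT2A, -0.0041 to 0.014 for MT1X (-0.0018 without pair 4) and -0.088 to 0.16 for SLC30A10. MT1F (0.0069 to 0.057), MT1M (0.012 to 0.022), MTF1 (-0.15 to -0.095) and SLC30A1 (-0.13 to -0.037) kept their sign. SLC30A4, HMOX1, FOS and HSPA6 were not called with eBayes without trend (adjusted p of 0.212, 0.112, 0.155 and 0.0755). The cause of these changes was not tested. The limma 95% interval of MT2A ran from -0.22 to 0.48 on the log2 scale. In limma the variance of a gene is drawn toward that of other genes of its level. The interval therefore does not measure the spread of the 4 pairs of MT2A (SD 0.496) alone, and the depth was unknown.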
